A study of Homo sapiens with 33 samples.

Results

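The 8 genes described here are surface markers and transcription or RNA-binding factors that are commonly used to mark stem-like cells in carcinoma. They are CD44, PROM1 (which encodes CD133), CD24, KIT, SOX2, POU5F1 (which encodes OCT4), SALL4 and LIN28B. They were taken by gene symbol from a table of 29744 genes, and all 8 had a row. The study sequenced RNA of 11 human cell lines of high-grade serous ovarian carcinoma (HGSOC), each in 3 replicates, which gives 33 libraries in 4 families of lines. OVCAR3 and OVCAR4 are established HGSOC lines that the study treated as platinum-sensitive, and from each of them it selected resistant derivatives named ResA and ResB in separate runs of repeated short pulses of cisplatin at a rising dose. These selected lines were not kept in cisplatin afterwards. PEO1, PEO4 and PEO6 came from a single patient, as did PEA1 and PEA2, and of these PEO1 and PEA1 were the sensitive lines and PEO4, PEO6 and PEA2 the resistant ones. The sensitive lines were thus 4 and the resistant lines 7. The labels name the line and replicate only and list no drug treatment of the sequenced cultures. Each line is 1 model of its patient or selection, the media differed between OVCAR3, OVCAR4 and the patient-derived lines (only the media of OVCAR3 and OVCAR4 held added insulin), and replicates do not stand for separate patients.

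CD44 and CD133 are cell-surface glycoproteins, CD24 is a small, heavily glycosylated surface protein, and KIT is the receptor tyrosine kinase for stem cell factor. SOX2 and OCT4 are the DNA-binding partners at the centre of the pluripotency network of embryonic stem cells, SALL4 is a zinc finger factor of the same network, and LIN28B binds RNA and blocks the maturation of let-7 microRNAs. In ovarian carcinoma these surface proteins are used to sort cells with sphere-forming or tumour-initiating capacity, although CD24 is also widely present on carcinoma epithelium and CD44 on many mesenchymal and blood cells.

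Upstream sequence is shown for CD44, which was called in every resistant line, and for PROM1 and SOX2. PROM1 line means ranged from 0.127 to 262 TPM in the PEO family, and those of SOX2 from 0.0108 to 11.1 TPM in the OVCAR4 family. Each stretch holds the 250 bases before a RefSeq transcript start (GRCh38.p14), 5′ to 3′ on the gene's own strand, and capitals mark a CCAAT box on either strand (CCAAT or ATTGG).
CD44, plus strand, chr11:35138921-35139170: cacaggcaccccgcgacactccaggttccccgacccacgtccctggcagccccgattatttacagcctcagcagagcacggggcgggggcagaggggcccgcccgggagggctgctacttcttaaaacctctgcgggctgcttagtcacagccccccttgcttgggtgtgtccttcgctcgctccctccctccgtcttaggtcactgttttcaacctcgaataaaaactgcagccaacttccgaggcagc
PROM1, minus strand, chr4:16084024-16084273: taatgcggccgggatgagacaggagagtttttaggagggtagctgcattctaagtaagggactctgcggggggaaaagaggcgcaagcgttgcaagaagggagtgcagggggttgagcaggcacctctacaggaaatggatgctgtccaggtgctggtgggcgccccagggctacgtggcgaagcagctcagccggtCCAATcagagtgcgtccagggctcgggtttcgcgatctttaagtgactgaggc
SOX2, plus strand, chr3:181711675-181711924: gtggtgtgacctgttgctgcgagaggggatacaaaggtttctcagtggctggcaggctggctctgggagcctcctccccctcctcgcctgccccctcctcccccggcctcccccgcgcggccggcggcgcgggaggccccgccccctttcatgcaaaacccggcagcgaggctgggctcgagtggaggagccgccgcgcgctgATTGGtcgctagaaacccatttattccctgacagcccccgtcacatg
These stretches held 15, 13 and 20 CpG dinucleotides for CD44, PROM1 and SOX2. A promoter window of 300 bases (250 before and 50 after the start) was at hand for 6 of the 8 genes, with 12 windows in all, and not for POU5F1 and SALL4. A CCAAT box stood in 4 of the 12 windows and in 34.6% of the 35116 windows of all genes. None of the 12 held the octamer ATGCAAAT that OCT4 binds (1.77% of all windows), the SOX core ATTGTT (10.1%) or TATAAA (11.5%), searched on both strands.

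Levels are given in TPM, in which counts are divided by gene length and scaled to an equal total per library, and a gene was counted as detected in a line where the mean of its 3 libraries was at least 1 TPM. Libraries held between about 18059000 and 43394000 estimated counts. Detection ranged from 3 of the 8 genes in PEA1 and PEO4 to 7 in OVCAR3 ResA, where PROM1 alone was below that level. CD24 was detected in all 11 lines, CD44 in 9, POU5F1 in 8, PROM1 and SALL4 in 7, SOX2 in 4, LIN28B in 3 and KIT in 1. With a threshold of 0.5 TPM, CD44, PROM1 and SALL4 each gained 1 line and POU5F1 gained 2. No line therefore had all 8, and the members present differed between lines of a single family. In bulk RNA, fewer cells that carry a transcript and less transcript per cell cannot be told apart.

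**Figure D1:**
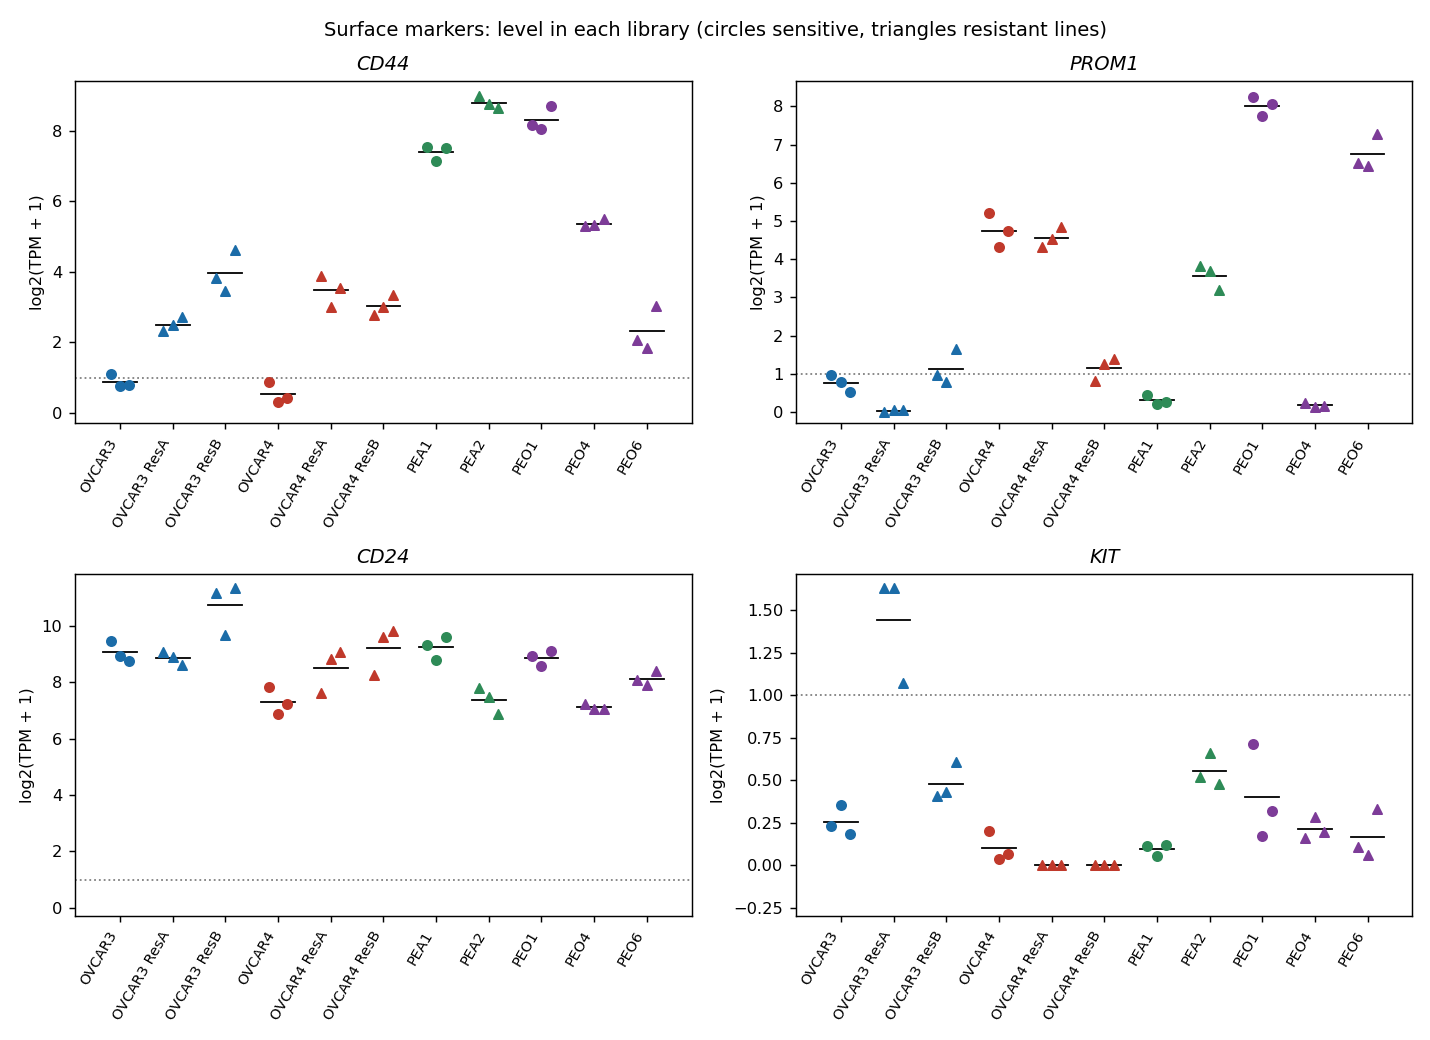
Level of CD44, PROM1, CD24 and KIT in each library, as log2(TPM + 1) on the vertical axis, by line on the horizontal axis. Points are the 3 libraries of a line, bars their mean, circles sensitive and triangles resistant lines, colours the 4 families, and the dotted line 1 TPM. CD24 lies far above the dotted line in every library, whereas PROM1 drops from 262 TPM in PEO1 to 0.127 TPM in PEO4.

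The HGSOC identity of the lines was checked with 10 markers (PAX8, WT1, MUC16, MSLN, EPCAM, KRT7, KRT8, KRT18, CDH6 and FOLR1). At least 8 of the 10 were detected in every line, and PAX8, the Müllerian lineage factor, was at 30.1 TPM or more in all of them. PEA1 stood apart, with a summed marker level of 481 to 548 TPM against 2315 to 7720 TPM in the other lines, EPCAM at 14.0 TPM and KRT7 at 2.95 TPM. The sum also fell within a family, to 2670 to 3256 TPM in OVCAR3 ResA from 5851 to 7720 TPM in OVCAR3. Of the 10 markers 8 were called lower there and 1 higher, where 22.9% of all genes tested were called lower and 22.0% higher. Among them were WT1 (2.09 against 60.3 TPM), FOLR1 (2.45 against 37.9 TPM) and KRT18 (379 against 2424 TPM), while EPCAM stood at 548 and 551 TPM. Every change of a member in OVCAR3 ResA given below therefore stands beside a change in these identity markers. The same holds for PEA2, where their sum was 3502 to 3749.5 TPM against 481 to 548 TPM in PEA1. There 6 were called higher and 0 lower (all genes tested, 23.3% and 23.8%). Marker calls of the other pairs are given with CD44. The part of the markers in the changes of the members was not tested in any pair. Lists of other cell types were low in comparison. The mast cell list, which bears on KIT, had 0 of 5 genes at 1 TPM in any line, with TPSAB1, TPSB2 and HDC at 0 counts throughout. The leukocyte list, which bears on CD44, reached a sum of 55.2 to 57.7 TPM in PEA2 through CD68, with CD3E at 0, PTPRC at 3.30 TPM and 3 of its 6 genes detected. The fibroblast list summed to 69.6 to 116 TPM in PEA1, mostly COL1A1, to 0.693 to 1.17 TPM in PEA2, and to at most 30.5 TPM in any other line. The germ cell list had 2 of 6 genes detected (TFAP2C and NANOS3), with DDX4, DAZL and DPPA3 near 0. It summed to 60.6 to 82.8 TPM in PEO1, 42.2 to 50.9 TPM in PEO4 and at most 25.7 TPM in any other line. The endothelial list had 2 of 5 genes detected (PECAM1 and CDH5). The part of other cells in the results below was not tested. Replicate 1 of OVCAR4 ResA and replicate 1 of OVCAR4 ResB each correlated less with their own line (best r across genes 0.932 and 0.945) than the other replicates of these lines (0.992 and 0.993), and they held 9.23% and 13.1% mitochondrial rRNA counts against 2.02% to 2.47% in the other 4 libraries. The parental OVCAR4 libraries held 5.18%, 14.8% and 12.0%, so that 4 of the 6 resistant libraries lay below all 3 parental ones. The part of this share in the changes of CD44, PROM1, CD24, SOX2, POU5F1 and SALL4 there was not tested. The OVCAR3 ResB libraries also correlated less with each other (best r 0.959, 0.959 and 0.946) than those of OVCAR3 (0.971 to 0.984). They held 5.97%, 8.88% and 1.12% mitochondrial rRNA counts, against 2.39% to 7.52% in OVCAR3. The part of this spread in the results of OVCAR3 ResB was not tested.

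For each of the 7 resistant lines, DESeq2 tested its difference from the sensitive relative with the replicate number as a block, and genes with an adjusted p under 0.05 over all genes tested were called. In OVCAR3 ResA 4 of the 8 genes were higher and 4 lower, where 22.0% of all genes tested were called higher and 22.9% lower. In OVCAR3 ResB 2 were higher and 2 lower (background 4.10% higher and 3.57% lower). In OVCAR4 ResA 6 members had an adjusted p, and 2 were higher and 2 lower (6.68% and 5.22%). In OVCAR4 ResB 7 had one, and 3 were higher and 3 lower (9.09% and 8.77%). In PEA2 5 were higher and 1 lower (23.3% and 23.8%). In PEO4 0 of the 7 tested were higher and 4 lower (16.6% and 16.7%). In PEO6 2 of the 7 tested were higher and 3 lower (21.2% and 20.3%). Of the 56 combinations of gene and pair, 51 had an adjusted p, and 37 of these were called, 18 higher and 19 lower. With limma on log2(TPM + 1) over all genes, 0 of the calls were left in OVCAR3 ResB, OVCAR4 ResA and OVCAR4 ResB, and after a filter on low TPM 3, 4 and 5 members were called in these lines, in that order. Of the 37, 12 stayed called under every alternative that was run. Pairs of a single family share the libraries of their sensitive line. The members were chosen with earlier results of these data known. No count of members called in this report is therefore a test against the share of all genes.

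**Figure D2:**
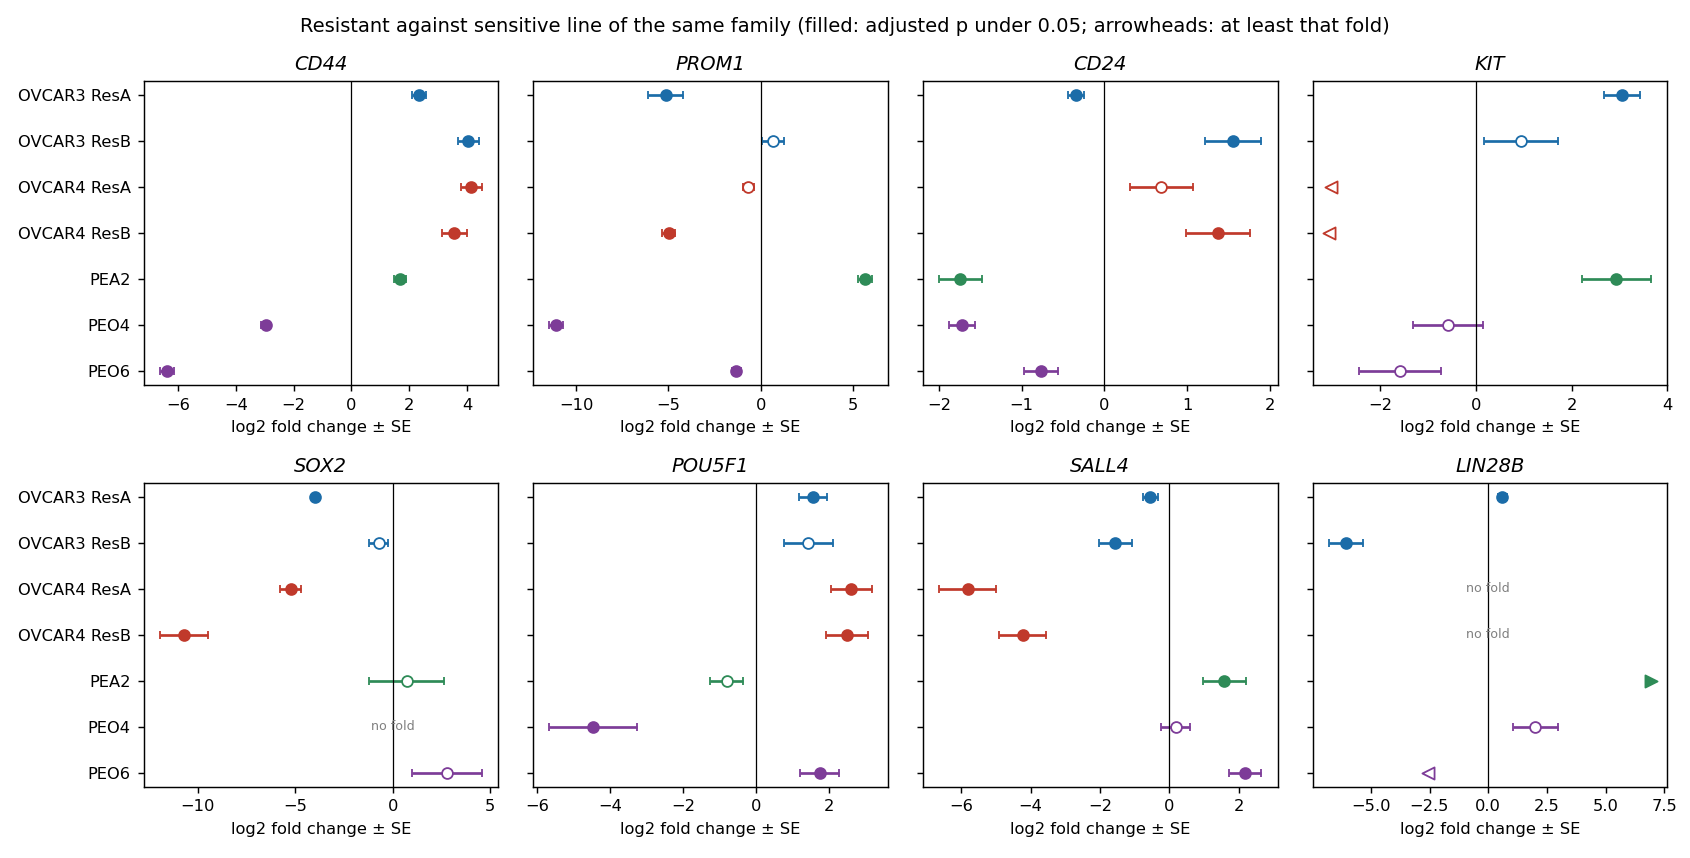
Log2 fold change of each gene in the 7 resistant lines against the sensitive line of the same family, with the SE of the DESeq2 fit as bars. Filled points passed an adjusted p of 0.05, arrowheads mark folds that are a lower bound because 1 line had 0 counts, and no fold is drawn where both lines had 3 counts or fewer. CD44 lies to the right in the OVCAR3, OVCAR4 and PEA families and to the left in PEO4 and PEO6.

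CD44, the main receptor for hyaluronan (chromosome 11, 35139171 to 35232402, GRCh38.p14, as for all gene positions), was called in all 7 pairs, higher in 5 and lower in 2. CD24 and SALL4 were called in 6 pairs and the other members in 5 or fewer. Its line means ran from 0.467 TPM in OVCAR4 to 447 TPM in PEA2, a ratio of 957. PEA2, PEO1, PEA1 and PEO4 formed the upper end, and of the steps between them only PEA2 to PEO1 overlapped. The 3 OVCAR3 libraries held 1.15, 0.702 and 0.735 TPM, the OVCAR3 ResA libraries 3.98, 4.60 and 5.56 TPM, and the OVCAR3 ResB libraries 13.2, 10.0 and 23.4 TPM. The 3 lines did not overlap, and ResA was 5.11-fold and ResB 16.6-fold above OVCAR3 (DESeq2 adjusted p 8.78e-21 and 7.07e-26). The OVCAR4 libraries held 0.830, 0.240 and 0.330 TPM, OVCAR4 ResA 13.9, 7.02 and 10.7 TPM, and OVCAR4 ResB 5.87, 7.01 and 9.20 TPM. Both resistant lines lay wholly above OVCAR4, by 17.5-fold and 11.2-fold (adjusted p 1.29e-26 and 1.91e-14). Of these 4 calls, those of OVCAR3 ResB, OVCAR4 ResA and OVCAR4 ResB were lost with limma on all genes, with adjusted p 0.123, 0.117 and 0.0751 on log2(TPM + 1) and 0.0589, 0.0702 and 0.0555 on log2(TPM + 0.1). The 4 selected lines therefore carried CD44 at 4.71 to 15.5 TPM, which was below every library of PEA1, PEA2, PEO1 and PEO4.

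In the patient-derived families CD44 started high. PEA1 held 187, 141 and 181 TPM and PEA2 505, 438 and 397 TPM, a rise of 3.21-fold (DESeq2 adjusted p 1.01e-14). PEO1 held 289, 267 and 417 TPM, PEO4 38.3, 39.3 and 43.9 TPM, and PEO6 3.20, 2.60 and 7.14 TPM. The 3 PEO lines were fully separated, and CD44 was 7.81-fold lower in PEO4 and 79.0-fold lower in PEO6 (log2 fold change -2.96 ± 0.16 and -6.39 ± 0.24, SE, adjusted p 6.08e-77 and 2.54e-150). PEO6 was also 10.1-fold below PEO4 (adjusted p 2.36e-25). Of the 10 HGSOC markers, 1 was called higher and 8 lower in OVCAR3 ResA (all genes tested, 22.0% and 22.9%). In OVCAR3 ResB, OVCAR4 ResA and OVCAR4 ResB 0 were higher and 2, 1 and 4 lower. Of all genes, 4.10%, 6.68% and 9.09% were higher there and 3.57%, 5.22% and 8.77% lower. In PEA2 6 were higher and 0 lower (23.3% and 23.8%). In PEO4 5 were higher and 1 lower (16.6% and 16.7%), and in PEO6 6 and 2 (21.2% and 20.3%). The part of these markers in the CD44 changes was not tested.

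PROM1 encodes CD133, a pentaspan membrane protein of protrusions (chromosome 4, 15968228 to 16084023), and it had a wider ratio between highest and lowest line than any other member that was above 0 in every line. Its line means ran from 0.0215 TPM in OVCAR3 ResA to 262 TPM in PEO1, where 96.7% of all genes in the table had a lower highest line mean. PEO1 held 304, 213 and 269 TPM, with 15795 to 16483 counts per library. PEO4, from the same patient, held 0.170, 0.0928 and 0.118 TPM, which is 6 to 8 counts per library, and was 2125-fold lower (log2 fold change -11.08 ± 0.37, SE, DESeq2 adjusted p 7.00e-194). PEO6, also from that patient, held 91.5, 86.6 and 155 TPM, 2.42-fold below PEO1 (adjusted p 1.77e-07) and 877-fold above PEO4 (adjusted p 6.37e-102). The 2 resistant lines of this family thus differed from each other far more in PROM1 than PEO6 differed from the sensitive line, and neither overlapped it.

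In the OVCAR4 family PROM1 separated the resistant lines in the same way. OVCAR4 held 36.0, 18.9 and 25.5 TPM and OVCAR4 ResA 18.8, 22.1 and 27.7 TPM, so that the libraries overlapped (DESeq2 adjusted p 0.155 with the replicate block, 0.0140 without it and 0.0467 with all 33 libraries in 1 fit, at log2 fold changes of -0.66, -0.67 and -0.64). OVCAR4 ResB held 0.767, 1.40 and 1.62 TPM, 31.9-fold below OVCAR4 (adjusted p 1.79e-40) and below ResA (log2 fold change -4.31 ± 0.18, SE, adjusted p 4.92e-120). Without replicate 1, the library that stood apart in both resistant lines, the difference between ResA and OVCAR4 passed the threshold (adjusted p 0.0356). In the OVCAR3 family all levels were low. OVCAR3 held 0.972, 0.722 and 0.436 TPM, and OVCAR3 ResA had 0, 2 and 2 counts, 35.4-fold lower (adjusted p 2.36e-07). OVCAR3 ResB held 0.952, 0.721 and 2.16 TPM, which overlapped OVCAR3 (adjusted p 0.703) and lay 58.2-fold above ResA (adjusted p 1.63e-07). PEA2 was the only resistant line with a rise in PROM1 that was called. It held 13.2, 11.8 and 8.17 TPM against 0.365, 0.148 and 0.209 TPM in PEA1, 49.5-fold higher (adjusted p 1.21e-52).

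CD24, a ligand of P-selectin and of Siglec-10 (chromosome 6, 106969831 to 106976855), had the smallest ratio between highest and lowest line. Its line means ran from 138 TPM in PEO4 to 1896.5 TPM in OVCAR3 ResB, a ratio of 13.8, and 99.5% of all genes in the table had a lower highest line mean. In the order of the lines, neighbours overlapped at every step except that from PEO6 to PEA2. OVCAR3 held 709, 491 and 432 TPM and OVCAR3 ResB 2301, 815 and 2574 TPM, 3.08-fold higher (DESeq2 adjusted p 1.58e-04), whereas OVCAR3 ResA held 541, 477 and 386 TPM. ResA overlapped OVCAR3, and its 1.28-fold lower level passed the test (adjusted p 0.00164) but not without replicate 1 (0.124) or without the replicate block (0.181). OVCAR4 held 226, 115 and 149 TPM and OVCAR4 ResB 308, 774 and 903 TPM, 2.67-fold higher (adjusted p 0.00396, but 0.267 without replicate 2 and 0.359 without replicate 3). Folds are ratios of normalised counts and can differ from those of TPM. Here the log2 fold change was 1.37 with DESeq2 and 1.93 on log2(TPM + 1). OVCAR4 ResA held 194, 457 and 532 TPM and overlapped OVCAR4 (adjusted p 0.261). In both OVCAR4 resistant lines replicate 1 had the lowest CD24, and without it the adjusted p was 6.44e-10 in ResA and 3.33e-35 in ResB. The 3 patient-derived resistant lines were all lower in CD24 than their sensitive line, without overlap. PEA2 was 3.30-fold below PEA1 (171 ± 53.1 against 619 ± 166 TPM, SD, n = 3, adjusted p 1.15e-10). PEO4, with libraries at 131 to 150.2 TPM, was 3.31-fold below PEO1 at 376 to 546 TPM (adjusted p 2.74e-26), and PEO6 was 1.69-fold below it (280.4 ± 48.6 TPM, SD, n = 3, adjusted p 9.46e-04, but 0.0555 without replicate 2).

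CD24 and CD44 are often read together, and on the TPM scale CD24 exceeded CD44 in 10 of the 11 lines. The ratio of CD24 to CD44 was 631 in OVCAR3 and 349 in OVCAR4, and it was 1.45 in PEO1. PEA2 was the exception, with CD44 2.61-fold above CD24. In the 4 cisplatin-selected lines the ratio lay between 37.4 and 122.

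KIT (chromosome 4, 54657957 to 54740715) reached 1 TPM in OVCAR3 ResA alone, at 2.10, 2.10 and 1.10 TPM. OVCAR3 held 0.174, 0.278 and 0.134 TPM, and ResA was 8.08-fold higher without overlap (DESeq2 adjusted p 7.85e-15, called under every alternative). OVCAR3 ResB held 0.324, 0.348 and 0.521 TPM, 4.39-fold below ResA (adjusted p 8.27e-04, but 0.136 without replicate 1 and 0.161 without replicate 2). PEA2 was 7.69-fold above PEA1 at 0.470 ± 0.0998 against 0.0680 ± 0.0241 TPM (SD, n = 3, adjusted p 2.24e-04), which became 0.0610 without replicate 1 and 0.10 without replicate 2. Both OVCAR4 resistant lines had 0 counts of KIT in all libraries against 2 to 15 counts in OVCAR4. Against a floor of 3 counts over the line, KIT was lower by at least 8.17-fold in ResA and by at least 8.44-fold in ResB, and neither was called with the replicate block (without it, adjusted p 0.0270 and 0.0142). In PEO4 and PEO6 KIT was at 4 to 21 counts per library and was not called (adjusted p 0.609 and 0.126). KITLG, the ligand of KIT, was highest in PEA1 at 13.9 ± 2.8 TPM (SD, n = 3) and was called lower in PEA2, PEO4 and PEO6 and higher in OVCAR3 ResB.

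**Figure D3:**
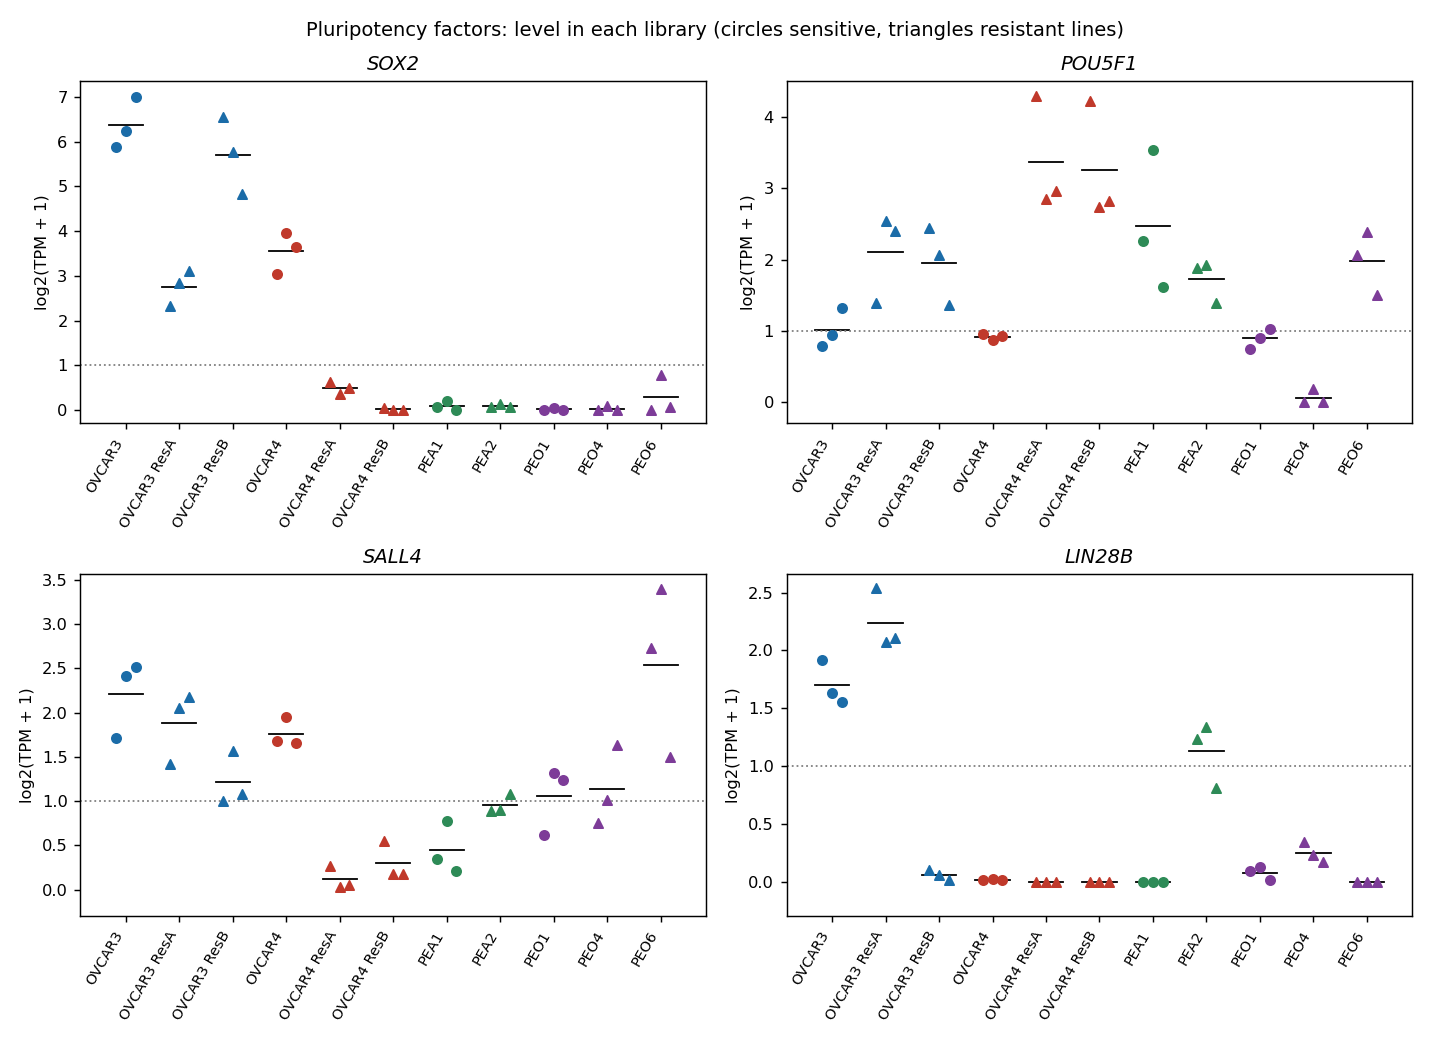
Level of SOX2, POU5F1, SALL4 and LIN28B in each library, drawn as for the surface markers. SOX2 lies above the dotted line of 1 TPM only in OVCAR3, OVCAR3 ResA, OVCAR3 ResB and OVCAR4, and LIN28B is at 0 in PEA1, PEO6 and both OVCAR4 resistant lines.

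SOX2, a single-exon gene on chromosome 3 (181711925 to 181714436), was detected in 4 lines, all of the OVCAR3 and OVCAR4 families. OVCAR3 held 57.7, 74.3 and 127 TPM and OVCAR3 ResA 4.03, 6.13 and 7.68 TPM, 16.1-fold lower without overlap (log2 fold change -3.98 ± 0.13, SE, DESeq2 adjusted p 1.03e-208). OVCAR3 ResB held 92.2, 53.2 and 27.4 TPM, overlapped OVCAR3 (adjusted p 0.553) and lay 10.3-fold above ResA (adjusted p 6.81e-09, with a log2 fold change of 3.22 that was 2.45 without replicate 1 and 4.06 without replicate 3). OVCAR4 held 7.26, 14.6 and 11.5 TPM. In OVCAR4 ResA the 3 libraries had 0.552, 0.289 and 0.407 TPM, 39.0-fold lower (adjusted p 2.95e-19). OVCAR4 ResB had 1 count in all 3 libraries together against 345 to 508 per OVCAR4 library, 1834-fold lower with a 95% exact interval of 329 to 72507 that covers counting error only (adjusted p 9.88e-16). In the PEA and PEO families SOX2 was near 0 in sensitive and resistant lines, with line means of at most 0.259 TPM. The single library there with more than 7 counts was PEO6 replicate 2, with 33, and PEO6 was not called against PEO1 (adjusted p 0.214).

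SOX2 lies inside the long noncoding RNA gene SOX2-OT (chromosome 3, 181056680 to 181742228), so their reads may be partly shared where both are present. SOX2-OT held 1.80, 1.93 and 2.51 TPM in OVCAR3, 0.0855, 0.0739 and 0.0181 TPM in OVCAR3 ResA and 1.11, 0.573 and 0.532 TPM in OVCAR3 ResB. It was lower in ResA (DESeq2 adjusted p 3.87e-17), where SOX2 was also lower, and lower in ResB (0.0374), where SOX2 was not called. In OVCAR4, where SOX2 stood at 11.1 ± 3.68 TPM (SD, n = 3), SOX2-OT had 0, 0 and 3 counts.

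POU5F1 (chromosome 6, 31164337 to 31170682) was low in most lines, with line means from 0.0453 TPM in PEO4 to 10.5 TPM in OVCAR4 ResA. Reads of this gene can be shared with near-identical copies. Of these, POU5F1B held at most 0.919 TPM in a line and POU5F1P3 and POU5F1P4 at most 0.0228 TPM, and with the copies summed no call of POU5F1 changed. OVCAR4 held 0.939, 0.831 and 0.907 TPM, OVCAR4 ResA 18.5, 6.20 and 6.76 TPM, and OVCAR4 ResB 17.8, 5.64 and 6.05 TPM. Both resistant lines lay above OVCAR4, 7.64-fold and 7.31-fold (DESeq2 adjusted p 1.35e-04 and 2.11e-04), and in both replicate 1 was the highest. Without replicate 1 the log2 fold changes went from 2.62 to 1.90 in ResA and from 2.51 to 1.76 in ResB (adjusted p 0.00195 and 0.00574). Both calls were lost with limma on log2(TPM + 1) over all genes (adjusted p 0.140 and 0.105). On log2(TPM + 0.1) the log2 fold changes were 3.23 in ResA and 3.11 in ResB, larger than on normalised counts. OVCAR3 ResA was 3.08-fold above OVCAR3 (3.56 ± 1.71 against 1.04 ± 0.400 TPM, SD, n = 3, adjusted p 1.59e-04, but 0.0662 without replicate 2). OVCAR3 ResB, at 3.06 ± 1.44 TPM (SD, n = 3), lay wholly above OVCAR3 but was not called (adjusted p 0.224, and 0.00974 without replicate 3). PEO1 held 0.680, 0.865 and 1.04 TPM. PEO4 had 0, 5 and 0 counts, 15.7-fold lower (adjusted p 0.00103, but 0.0506 without replicate 1). PEO6 held 3.16, 4.24 and 1.82 TPM, 3.53-fold above PEO1 (adjusted p 0.00348, but 0.183 and 0.192 without replicates 1 and 2) and 55.5-fold above PEO4 (adjusted p 8.35e-08, but 0.348 without replicate 2). PEA1 held 3.79, 10.6 and 2.05 TPM, overlapped PEA2 at 2.68, 2.80 and 1.62 TPM, and the pair was not called (adjusted p 0.130).

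SALL4 (chromosome 20, 51782331 to 51802521) had line means between 0.0880 TPM in OVCAR4 ResA and 5.67 TPM in PEO6. It was called lower in all 4 cisplatin-selected lines. OVCAR4 held 2.19, 2.86 and 2.17 TPM, OVCAR4 ResA 0.206, 0.0196 and 0.0380 TPM and OVCAR4 ResB 0.466, 0.128 and 0.130 TPM. Both resistant lines lay wholly below OVCAR4, with log2 fold changes of -5.81 ± 0.82 and -4.23 ± 0.67 (SE, DESeq2 adjusted p 2.36e-10 and 1.71e-08), with 1 to 20 counts per library. Leaving out 1 replicate number moved these changes to between -7.31 and -4.95 in ResA and between -5.19 and -3.59 in ResB. In OVCAR3 ResB SALL4 was 2.83-fold lower (1.36 ± 0.527 against 3.78 ± 1.32 TPM, SD, n = 3, adjusted p 0.0178), and in OVCAR3 ResA it was 1.46-fold lower (2.78 ± 0.970 TPM, SD, n = 3, adjusted p 0.0285). Leaving out any single replicate number ended both of these calls (adjusted p 0.114 to 0.191 in ResB and 0.202 to 0.267 in ResA), and leaving out the replicate block ended that in ResA (0.368). PEA2 was 2.55-fold above PEA1 (adjusted p 0.0267), a call also lost without any single replicate number (0.0551 to 0.423). PEO6 held 5.63, 9.56 and 1.82 TPM against 0.529, 1.48 and 1.36 TPM in PEO1, 5.06-fold higher (adjusted p 1.43e-05, with a log2 fold change of 2.20 that was 1.48 without replicate 1 and 3.02 without replicate 3), and PEO4 at 1.27 ± 0.739 TPM (SD, n = 3) was not called (adjusted p 0.789).

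LIN28B (chromosome 6, 104937026 to 105083332) lies 1.89 Mb from CD24 on the same chromosome. It was detected in OVCAR3, OVCAR3 ResA and PEA2, and in 4 lines it had 0 counts in all 3 libraries (OVCAR4 ResA, OVCAR4 ResB, PEA1 and PEO6). OVCAR3 held 2.79, 2.10 and 1.93 TPM, OVCAR3 ResA 4.80, 3.21 and 3.30 TPM, and OVCAR3 ResB 0.0692, 0.0389 and 0.0120 TPM. ResB, with 1 to 4 counts per library, was 57.7-fold below OVCAR3 (DESeq2 adjusted p 9.61e-15) and 87.8-fold below ResA (adjusted p 2.93e-19). ResA was 1.52-fold above OVCAR3 (adjusted p 0.00588, but 0.224 and 0.130 without replicates 1 and 3). PEA2 held 1.35, 1.53 and 0.753 TPM against 0 counts in PEA1, at least 123-fold higher (adjusted p 3.10e-12, but 0.0565 without replicate 2). PEO4, with 10 to 20 counts per library, was at least 20.2-fold above PEO6 (adjusted p 8.71e-04, but 0.111 and 0.0690 without replicates 1 and 2) and was not called against PEO1 (0.0917).

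Whether the 7 changes differed from each other was tested with a likelihood ratio test over all 33 libraries, in which the changes were either free or held equal. All 8 genes were called, where 70.2% of all genes tested were, with DESeq2 adjusted p from 2.11e-284 for PROM1 to 1.80e-09 for POU5F1. At the level of lines, with the counts of each line summed and family as a covariate, 0 of the 8 were called by DESeq2, where 0.286% of all genes were. The lowest unadjusted p was 0.0899 for SOX2, with a log2 fold change of -2.01 ± 1.19 (SE), so 0 of the 8 were below 0.05 unadjusted, and edgeR called 0 as well. The intervals are wide with 4 sensitive and 7 resistant lines, and CD44 had a line-level change of 0.94 ± 1.01 (log2, SE).

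The resistant lines of a family also differed from each other. OVCAR3 ResB differed from OVCAR3 ResA in 6 of the 8 genes (13.5% of all genes tested were called), and PEO6 from PEO4 in 6 of the 8 (18.2%). OVCAR4 ResB differed from OVCAR4 ResA in 3 of the 6 members that had an adjusted p (32.8%). In the OVCAR3 family ResB was higher in CD44, PROM1, CD24 and SOX2 and lower in KIT and LIN28B. In the PEO family PEO6 was higher in PROM1, CD24, POU5F1 and SALL4 and lower in CD44 and LIN28B, but without replicate 2 the calls for CD24, POU5F1, SALL4 and LIN28B were lost and 2 remained. In the OVCAR4 family ResB was lower in PROM1 and SOX2 and higher in CD24, and CD44 missed the threshold (adjusted p 0.0513). The CD24 call was lost without the replicate block (0.359) and the SOX2 call without replicate 2 (0.102).

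Co-expression was described over the 11 lines as log2(mean TPM + 1), without a test, because lines of a family share their origin. Of the 28 pairs of genes, KIT and LIN28B were the most alike, with Pearson r 0.769 and Spearman rho 0.844, and r was 0.601 after the mean of each family was subtracted. Both genes were highest in OVCAR3 ResA and both were low or at 0 in the OVCAR4 family, and KIT was below 1 TPM in all lines but that one. Leaving out 1 family at a time gave r between 0.721 and 0.787. CD44 and SOX2 went in opposite directions (r -0.584, rho -0.591), less so with family means subtracted (r -0.378). Both were detected in only 2 lines, OVCAR3 ResA and OVCAR3 ResB. CD44 and SALL4 had r -0.499, which became -0.844 with family means subtracted and -0.349 without the OVCAR3 family. The pair of surface markers CD44 and PROM1 had r 0.147 and rho 0, and CD44 and CD24 had r -0.06 and rho 0.0636. CD44 and PROM1 were both detected in 6 lines, and in PEO1 both were above 200 TPM. The SOX2 and POU5F1 pair, partners in embryonic stem cells, had r -0.227 and rho 0, and r -0.664 with family means subtracted. POU5F1 and SALL4 had r -0.507, which was -0.04 without the OVCAR4 family. CD24 and POU5F1 had r 0.460 and 0.641 with family means subtracted.

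**Figure D4:**
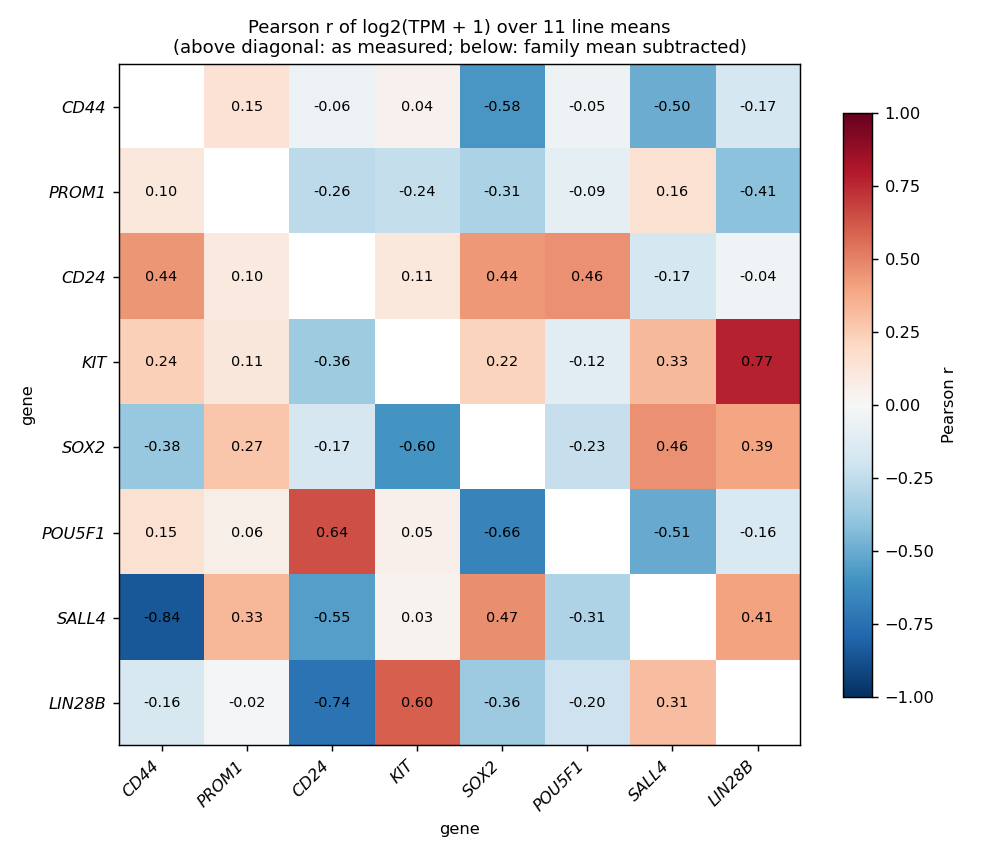
Pearson r between the 8 genes (rows and columns) over the 11 lines, from log2(mean TPM + 1), as measured above the diagonal and with the mean of each family subtracted below it. KIT with LIN28B has the highest value above the diagonal, 0.769, and CD44 with SALL4 the lowest below it, -0.844.

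**Figure D5:**
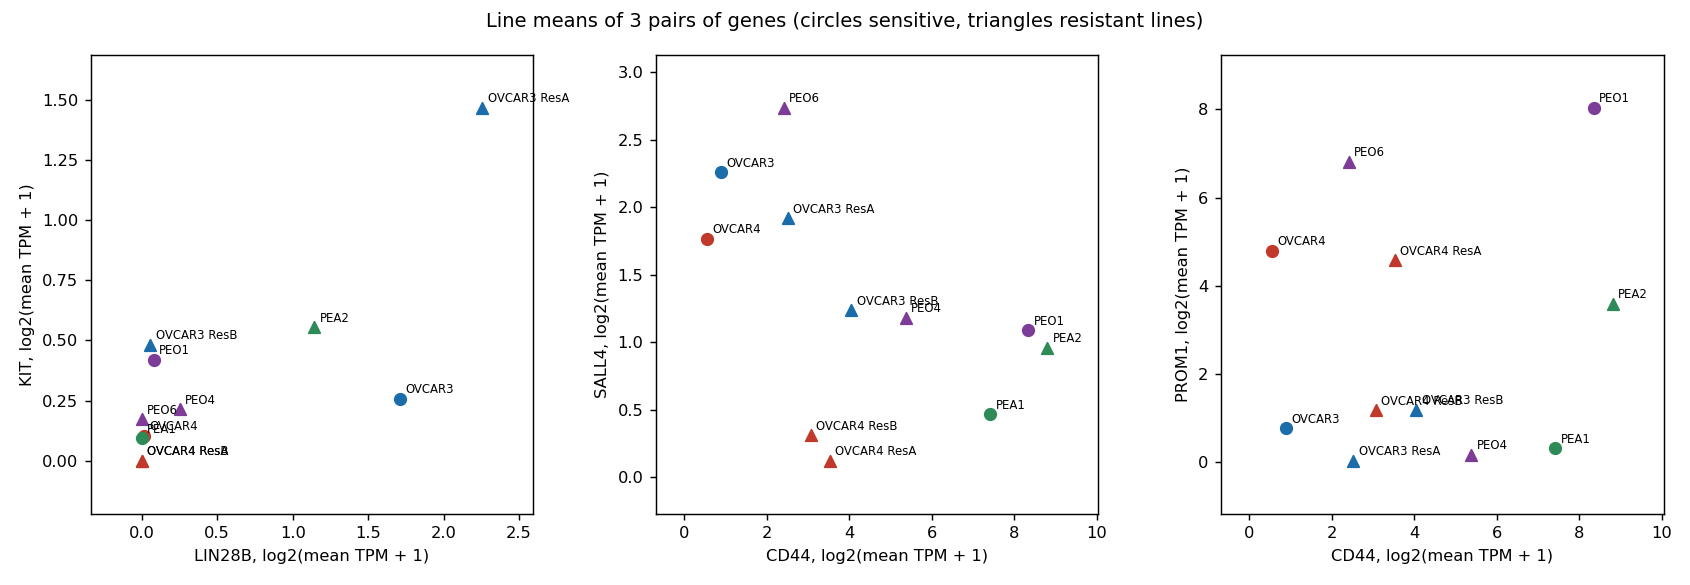
Line means as log2(mean TPM + 1) for 3 pairs of genes, LIN28B with KIT, CD44 with SALL4 and CD44 with PROM1, with circles for sensitive and triangles for resistant lines and colours for the families. OVCAR3 ResA stands alone at the top right of the LIN28B and KIT panel, and in the panel of CD44 with PROM1 PEO1 is high in both genes whereas PEO4 is high in CD44 only.

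The 3 genes whose pattern over the 11 lines was most like each member were taken from 13185 genes that reached 5 TPM in a line. MYO1E, a class I myosin, followed CD44 with r 0.970, ahead of OGFOD1 (0.961) and TGFB1 (0.960). PTHLH, which encodes parathyroid hormone-related protein, followed KIT with r 0.953, and IGF2BP1, an RNA-binding protein whose transcript is a known let-7 target, followed it with r 0.921. IGF2BP1 stood at 12.7 TPM in OVCAR3 ResA and at most 1.09 TPM in any other line. SOX2 was nearest to B3GALT1 (0.957) and IL12A (0.943), POU5F1 to COG3 (0.943), TRIM52 (0.928) and DGKH (0.926), and SALL4 to GAS5 (0.964), SLC25A21-AS1 (0.884) and NDUFS3 (0.879). LIN28B was nearest to POLB (0.917), TMPRSS15 (0.899) and COL5A2 (0.890), all highest in OVCAR3 ResA. CD24 was nearest to PEAK1 (0.931), FAM178A (0.885) and CCSAP (0.882), and PROM1 to TMEM126A (0.834) after SDHAP1 (0.881) and RNU1-27P (0.875). SDHAP1, RNU1-27P, CCZ1B (with SOX2, 0.939) and RNA5S12 (with KIT, 0.908) have near-identical copies, and their values are uncertain. With 11 points, such values describe these lines only.

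Other genes of the same pathways were taken from lists. In the 7 pairs, between 4.10% and 23.3% of all genes tested were called higher and between 3.57% and 23.8% lower. The pooled counts of the lists below were not tested against these shares. Of 16 further genes of the pluripotency network, 9 stayed below 1 TPM in every line, among them NANOG, LIN28A, DPPA4, UTF1, TDGF1 and PRDM14. Those detected included the widely expressed MYC and KLF4, together with DNMT3B and SALL2, and ZFP42 (REX1) was at 3.22 TPM in PEA1 and 14.0 TPM in PEA2. Over the 7 pairs these 16 genes gave 51 tests with 8 calls higher and 9 lower, and their median log2 change per pair lay between -0.63 and 0.31 (all genes tested, -0.02 to 0.02). Among them SALL1, a relative of SALL4, passed as higher in 3 pairs and as lower in 3. The 8 let-7 target genes gave 51 tests with 12 calls higher and 9 lower, with medians of -0.47 to 0.47. OVCAR3 ResA had 5 of these 8 called higher and 2 lower (all genes, 22.0% and 22.9%), PEA2 3 higher and 0 lower of 7 tested (23.3% and 23.8%), and PEO4, where LIN28B was not called, 3 higher and 1 lower of 7 (16.6% and 16.7%). PEO6 had 1 higher and 3 lower of 7 (21.2% and 20.3%). OVCAR4 ResA had 0 higher and 1 lower of 7 (6.68% and 5.22%), and OVCAR4 ResB 0 higher and 2 lower of 7 (9.09% and 8.77%). IGF2BP3 was higher in 4 pairs (OVCAR3 ResA, PEA2, PEO4 and PEO6) and called lower in 0, whereas IGF2BP2 was called lower in 3 pairs and higher in 0. In OVCAR3 ResB 0 of the 8 were called, where 4.10% of all genes were called higher and 3.57% lower.

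Of the 10 further SOX genes, 46 tests gave 10 calls higher and 13 lower (medians -0.56 to 0.13). For this and the next pooled counts, the shares of all genes were again 4.10% to 23.3% higher and 3.57% to 23.8% lower by pair. SOX17, the Müllerian and endodermal family member, stood at 25.2 TPM or more in the 6 OVCAR3 and OVCAR4 lines and at 29.8 TPM in PEA2, and near 0 in PEO1 and PEO4. It was called higher in PEA2 and PEO6 and lower in OVCAR3 ResA and OVCAR3 ResB. SOX4 and SOX12 were detected in all 11 lines, and SOX12 had 1 call higher and 4 lower. SOX9 had 3 calls higher and 1 lower, and SOX3 had 2 of each. The 15 further surface and stem cell markers used in ovarian cancer gave 94 tests with 19 calls higher and 25 lower (medians -0.64 to 1.15). FZD7, a WNT receptor, was called in all 7 pairs, higher in both OVCAR4 resistant lines and lower in the other 5. ALDH1A3, an aldehyde dehydrogenase, stood at 1557 TPM in PEO1, 95.3 TPM in PEO4 and 3.79 TPM in PEO6, the same order as CD44, and it was called lower in PEO4 and PEO6 (DESeq2 adjusted p 4.13e-123 and 5.99e-237) and higher in PEA2. Its call in OVCAR4 ResA (adjusted p 0.0421) came with 46.6 TPM in replicate 1 and 2.09 and 2.59 TPM in the others, against 0.991 TPM in OVCAR4. ALCAM had 2 calls higher and 3 lower, and ENG 2 of each. The 14 ligands and partners, which include the hyaluronan synthases and the proteins that link CD44 to the cytoskeleton, gave 86 tests with 14 calls higher and 18 lower (medians -0.48 to 0.30). MSN, which encodes the linker moesin, had 3 calls higher and 2 lower, and HAS3, a hyaluronan synthase, 2 of each. HMGA1 (3 higher, 3 lower) and HMGA2 (3 higher, 1 lower), both on the let-7 list, were also called in at least 4 pairs, as were the HGSOC markers FOLR1 (2 higher, 4 lower), MUC16 (3 and 2), MSLN (3 and 1), WT1 (2 and 2) and KRT7 (2 and 2), the germ cell list gene TFAP2C (1 and 3) and the fibroblast list gene COL1A2 (3 and 3), which stayed below 1 TPM in every line.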

How the data were processed

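RNA was sequenced from 33 libraries of 11 HGSOC cell lines after poly(A) selection. The authors quantified reads per gene with salmon on GRCh38 and deposited estimated counts (expected counts, 88.4% of them whole) and TPM, which the authors scaled per gene length and per library. The strand setting is not given in the sources used here. The table held 29744 genes, of which 4956 were at 0 in every library, and libraries held about 18059000 to 43394000 counts. Precision at low counts is set by this depth, and counting intervals cover counting error only.

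Lines were taken from the labels, and the sensitive and resistant roles from the study's text. Estimated counts were rounded and tested by DESeq2 1.42.0 in R 4.3.3, with the 6 libraries of each pair, the replicate number as a block (as in the study's methods) and Benjamini-Hochberg adjustment over all genes tested. An adjusted p that DESeq2 left as NA stayed NA. Nothing states that replicates were separate cultures, so p-values measure the spread between these samples, which may be technical. In OVCAR3 ResA against OVCAR3 and OVCAR4 ResB against OVCAR4 ResA, libraries with the same replicate number deviated together (correlations of 0.246 to 0.675 and 0.528 to 0.718), so the numbers were taken to pair the samples there. Alternatives were edgeR 4.0.16, limma 3.58.1 with a mean trend on log2(TPM + 1) or log2(TPM + 0.1), other size factors, a low-count filter, all libraries in 1 fit, no block, and leaving out each replicate number. Scripts were tested on simulated data. Replicates differed by more than counting noise (chi-square per degree of freedom 32.6 to 568). A fold is a ratio of normalised counts, given as a bound against a floor of 3 counts where a line had 0, and not given where both lines had 3 or fewer.

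The 8 members and all gene lists were chosen with earlier results of these data known. Named genes were the members, the 3 genes of highest Pearson r with each member (at least 5 TPM in a line, with at least 1 TPM between highest and lowest line), list genes called in at least 4 of the 7 pairs, and near-identical copies. Other list genes were named after their values were seen, for their level or their role beside a member. Gene positions and upstream sequences are from RefSeq GRCh38.p14.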

Additional observations from a re-analysis of the deposited data

Results flagged for a closer look

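For each of the 8 genes the change between resistant and sensitive lines differed between the 7 pairs (likelihood ratio test by DESeq2 over 33 libraries, all genes adjusted together), where 70.2% of all genes tested did. The adjusted p was 2.16e-145 for CD44, which rose in 5 pairs and fell in 2, and 2.11e-284 for PROM1, which rose in 1 and fell in 4. It was 7.11e-29 for CD24 (2 higher, 4 lower), 1.06e-66 for LIN28B (2 higher, 1 lower) and 1.57e-20 for KIT (2 higher, 0 lower). It was 4.78e-12 for SALL4 (2 higher, 4 lower), 4.01e-11 for SOX2 (0 higher, 3 lower) and 1.80e-09 for POU5F1 (4 higher, 1 lower). Without the replicate block all 8 also passed.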

How the results depend on the processing

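No called change reversed its direction under any alternative. Of the members called, the all-library fit gave 4 instead of 8 in OVCAR3 ResA, 7 instead of 4 in OVCAR4 ResA and 8 instead of 5 in PEO6, and edgeR gave 8 in PEO6. Limma on log2(TPM + 1) called 0 in OVCAR3 ResB (4 in the report), 0 in OVCAR4 ResA, 0 instead of 6 in OVCAR4 ResB, 3 in PEO6, 0 instead of 6 in OVCAR3 ResB against ResA and 3 instead of 6 in PEO6 against PEO4. With log2(TPM + 0.1) the counts were 2 in OVCAR4 ResB, 0 in OVCAR3 ResB and 0 in OVCAR4 ResA, with 3 in OVCAR3 ResB against ResA and 3 in PEO6 against PEO4. With a TPM filter they were 3 instead of 6 in PEA2. There KIT, SALL4 and LIN28B did not pass the filter (at least 1 TPM in 3 libraries) and were not tested, and CD44, PROM1 and CD24 stayed called. In OVCAR3 ResB against ResA 3 were called with this filter. PROM1 did not pass it there, and CD44 and KIT were tested but not called (limma adjusted p 0.0661 and 0.0749). The cause of the other differences was not tested.

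Leaving out 1 replicate number gave 5 to 6 in OVCAR3 ResA, 3 to 4 in OVCAR3 ResB, 4 to 6 in OVCAR4 ResA, 5 to 6 in OVCAR4 ResB, 3 to 5 in PEA2, 3 to 4 in PEO4 and 3 to 5 in PEO6. Between resistant lines it gave 5 to 6 (OVCAR3), 2 to 3 (OVCAR4) and 2 to 6 (PEO), with fewer libraries tested. Without the replicate block the counts were 6 in OVCAR3 ResA, 4 in OVCAR3 ResB, 6 in OVCAR4 ResA, 7 in OVCAR4 ResB, 6 in PEA2, 4 in PEO4 and 6 in PEO6. In the other 8 comparisons the lowest correlation of same-numbered libraries lay between -0.57 and 0.0159 (the latter in PEO4 against PEO1). The samples there were taken to share only a number. The main tests kept the block in these comparisons too, as in the study's methods. Calls and missed calls there can depend on it, as in OVCAR4 ResA, with 4 members called with the block and 6 without it. No copies of CD24 were in the table, so that alternative was not run. Members under about 10 counts per library (KIT, LIN28B, SALL4 in several lines) are limited by depth.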
